A study of Mus musculus with 13 samples.

Results

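The genes described here encode mitochondrial complex I, the NADH dehydrogenase of the respiratory chain, and its assembly factors. Members were the protein-coding genes whose symbol begins with Nduf and the 7 mt-Nd genes of the mitochondrial chromosome, which gave 53 of the 49315 genes counted, 46 of them in the nuclear genome. They were measured by total RNA sequencing of midbrain homogenate from 13 male mice on a C57BL/6J background, aged 8 to 12 weeks. All mice were Ripk3fl/fl, so that both alleles of Ripk3, a kinase of necroptotic and inflammatory signalling, could be excised, and all received tamoxifen at 60 mg/kg for 5 days. Cre+ mice carried in addition an Aldh1l1-Cre/ERT2 transgene, in which the astrocyte promoter of Aldh1l1 drives a tamoxifen-activated recombinase, and Cre- mice lacked it. Mice of each genotype then received MPTP at 20 mg/kg or saline by intraperitoneal injection once daily for 5 days, and tissue was taken 3 days after the last injection. The groups were Cre- Saline (3 mice), Cre+ Saline (3 mice), Cre- MPTP (3 mice) and Cre+ MPTP (4 mice). Each library came from a separate mouse.

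Complex I takes electrons from NADH in its matrix arm, passes them along iron-sulphur clusters to ubiquinone, and couples this to proton pumping in its membrane arm. Its matrix-arm core subunits are imported products of nuclear genes, whereas the hydrophobic membrane core is encoded by mitochondrial DNA, so its assembly draws on both genomes. MPTP is converted in the brain to MPP+, which enters dopaminergic neurons and inhibits complex I, and the comparisons below ask how the transcripts of that target stood after MPTP and after loss of Ripk3 from astrocytes. Members were grouped by role as 3 core subunits of the NADH-oxidising N module (Ndufv1, Ndufv2, Ndufs1), those of the ubiquinone-binding Q module (among them Ndufs3, Ndufs7 and Ndufs8), the 7 mitochondrially encoded membrane core subunits, 9 accessory subunits of the matrix arm, 20 of the membrane arm, 8 assembly factors (Ndufaf1 to Ndufaf8) and 2 others. The last 2 carry the Nduf name only: Ndufa4 is now placed in complex IV, and Ndufa4l2 is its hypoxia-inducible paralogue.

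Libraries held between 11489150 and 29397278 assigned counts, and the library labelled Cre- MPTP replicate 1 was the smallest, the other 12 starting at 17713289. That library stood apart in these genes before any comparison was made. It had counts for 21101 genes against 25432 to 27186 in the others, and the mitochondrial chromosome took 1.12% of its counts against 3.55 to 6.06%. Cre+ MPTP replicate 4 stood apart in another way: 6 cardiac and skeletal muscle markers, among them Myh6 and Mb, summed to 6334 CPM (counts scaled by library size after normalization by the trimmed mean of M values) there and to 11.7 to 147 CPM elsewhere, with none of the 6 at 0 in any library, and 5 erythrocyte markers summed to 87.4 CPM against 1.39 to 15.1. Markers of dopaminergic neurons were present in every library (8 genes, 349 to 618 CPM summed, the lowest in Cre- MPTP replicate 1), as were those of neurons, astrocytes and oligodendrocytes, with none at 0. The dopaminergic sums were 495 to 574 CPM in Cre- Saline and 559 and 611 CPM in Cre- MPTP replicates 2 and 3. They were 532 to 571 CPM in Cre+ Saline and 468 to 618 CPM in Cre+ MPTP, so no lower level after MPTP was seen outside Cre- MPTP replicate 1. In Cre- MPTP replicate 1 the sums lay outside all other libraries for 5 neuronal markers (2214 against 3268 to 4062 CPM), 5 astrocyte markers (1216 against 1879 to 2610 CPM) and 4 endothelial markers (386 against 169 to 250.0 CPM). The 5 oligodendrocyte markers (8754 against 8771 to 16167 CPM) and the 6 muscle markers (11.7 against 13.7 to 6334 CPM) were also lowest there. Gfap, an astrocyte gene outside the marker list, was highest there (3171 against 292 to 1623 CPM). The part of these cell types in the results below was not tested. Ripk3 itself lay between 0.159 and 1.32 CPM in all 13 libraries, too low in whole midbrain to check an excision confined to astrocytes. Results below are given with and without the libraries that stood apart.

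The base composition of the members is set beside the deviation of 1 library below, and the starts of 5 core subunits are shown. They are the 3 core genes that lay lowest in Cre- MPTP replicate 1 relative to the other Cre- MPTP libraries, followed by the 2 that lay highest. The first 3 are mitochondrial and the last 2 nuclear, so base composition and genome cannot be told apart among these 5. Each line gives the first 90 coding bases, 5′ to 3′, of the GENCODE M21 transcript on GRCm38, with G and C in capitals.
mt-Nd2: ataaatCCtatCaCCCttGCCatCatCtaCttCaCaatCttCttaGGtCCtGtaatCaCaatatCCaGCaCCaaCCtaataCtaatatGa
mt-Nd5: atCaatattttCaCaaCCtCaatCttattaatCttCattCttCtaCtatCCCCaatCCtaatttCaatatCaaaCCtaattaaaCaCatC
mt-Nd6: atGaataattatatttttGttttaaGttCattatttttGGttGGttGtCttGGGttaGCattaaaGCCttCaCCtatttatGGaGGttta
Ndufs3: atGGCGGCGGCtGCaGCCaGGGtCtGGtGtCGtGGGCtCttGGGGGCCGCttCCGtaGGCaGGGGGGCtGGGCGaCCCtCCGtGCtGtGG
Ndufs7: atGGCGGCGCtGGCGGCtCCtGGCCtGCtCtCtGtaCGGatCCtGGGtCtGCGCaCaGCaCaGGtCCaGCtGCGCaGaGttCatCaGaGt
Over the bases shown, G and C made up 36.7% in mt-Nd2, 27.8% in mt-Nd5 and 27.8% in mt-Nd6, against 73.3% in Ndufs3 and 64.4% in Ndufs7. Over whole coding sequences the values were 35.7, 37.1 and 34.1% for the mitochondrial genes and 53.4 and 61.5% for the nuclear ones, in the same order. On GRCm38 the mitochondrial genes lie at 3914-4951 (mt-Nd2, plus strand), 11742-13565 (mt-Nd5, plus strand) and 13552-14070 (mt-Nd6, minus strand). The nuclear genes lie at chr2:90894634-90904827 (Ndufs3, minus strand) and chr10:80249121-80256794 (Ndufs7, plus strand).

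Per unit of transcript length, 5 of the 7 mitochondrially encoded core genes stood above every nuclear member in Cre- Saline mice. By their counts mt-Nd3 and mt-Nd4l were among the lowest members, but both have near-identical nuclear copies, given below, so these levels are uncertain. Expressed as TPM, the count divided by the gene's exonic length and scaled to a common total, mt-Nd1, which forms the entry of the ubiquinone channel, reached 18979 ± 3166 TPM (SD, n = 3), and mt-Nd2, one of the antiporter-like pump subunits, 11511 ± 1956 TPM. The pump subunits mt-Nd5 and mt-Nd4 and the small subunit mt-Nd6 followed at 7384 ± 726, 7059 ± 1284 and 6893.5 ± 1462 TPM, and the ranges of these last 3 overlapped. The place of mt-Nd4 is uncertain too, since a nuclear copy is identical over 876 of its 1378 bases. The 46 nuclear members spanned 12.4 to 581 TPM with a median of 186.8 TPM, and 38 of them overlapped in range with the next gene in the order. By role, the median was 292 TPM for membrane-arm accessory subunits, 283 TPM for the Q module, 258 TPM for matrix-arm accessory subunits, 235 TPM for the N module and 45.9 TPM for the assembly factors. The lowest levels were those of mt-Nd4l (20.2 TPM), Ndufa4l2 (12.4 TPM) and mt-Nd3 (2.42 TPM).

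**Figure D1:**
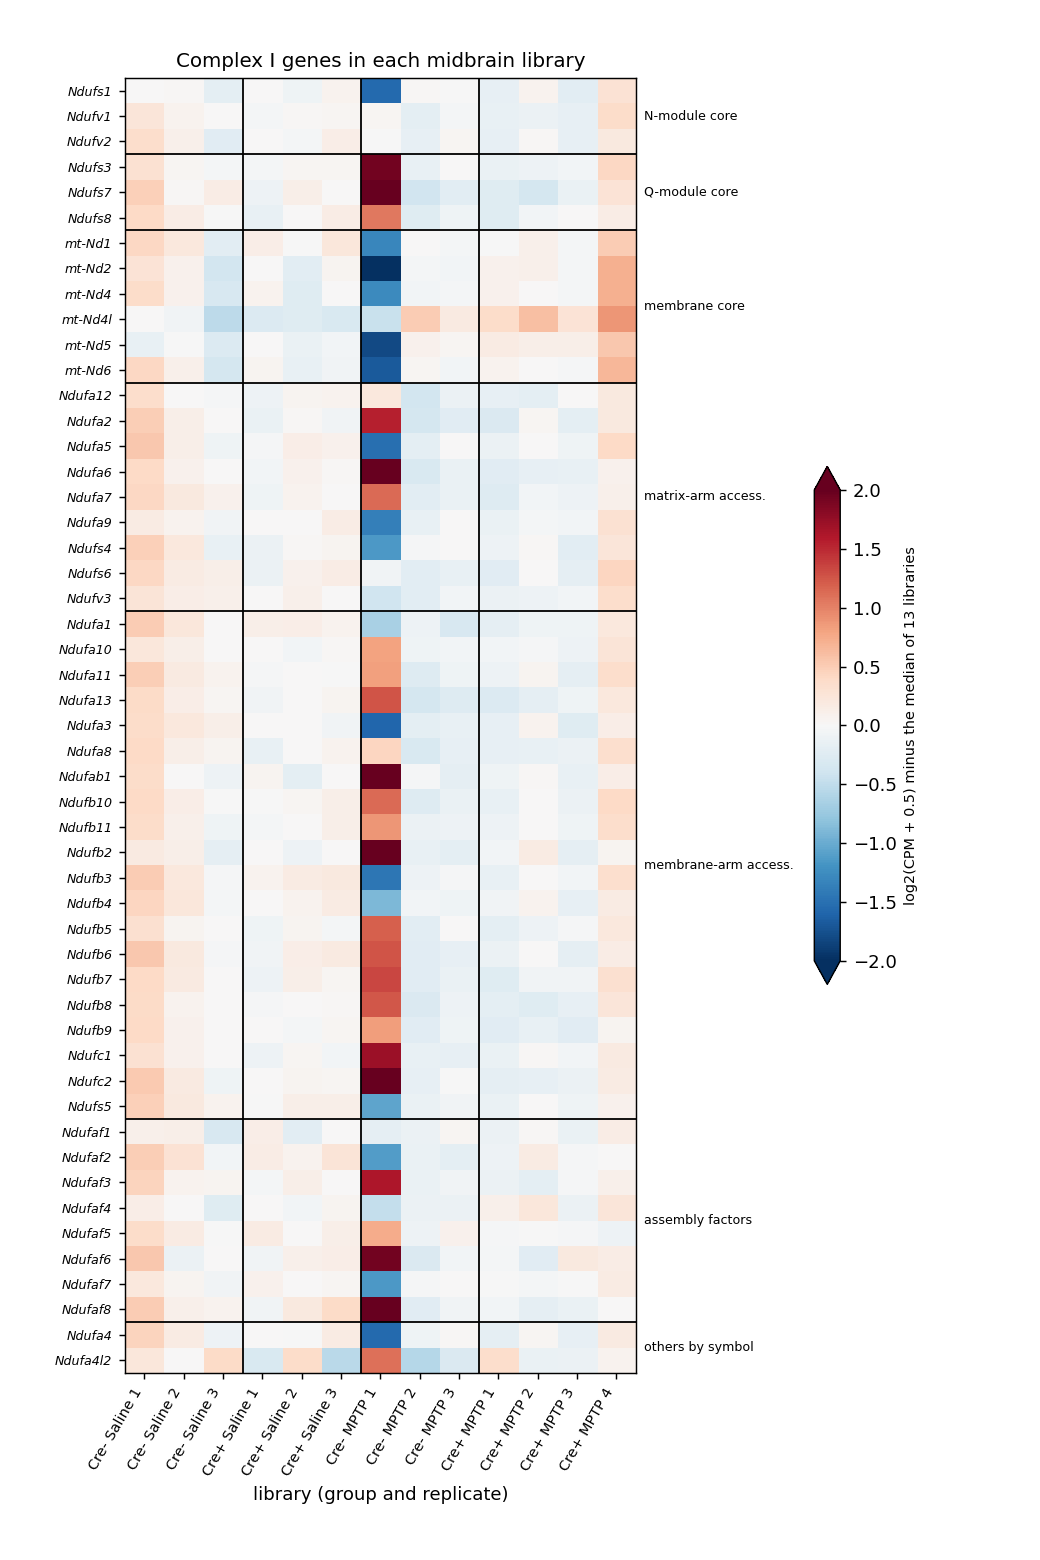
Heat map of 51 complex I genes that passed the count filter (vertical axis, by role) in the 13 libraries (horizontal axis, by group and replicate). Colour is log2(CPM + 0.5) minus the gene's median over the 13 libraries. Cre- MPTP replicate 1 stands out in both directions, with Ndufaf8 and Ndufa6 among the genes above all other libraries and mt-Nd2 and Ndufs1 among those below.

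The largest departures in complex I transcripts belonged to 1 library. In Cre- MPTP replicate 1, 27 of the 52 members that passed the count filter lay above all 12 other libraries (51.9%, against 33.8% of all genes tested) and 19 lay below all of them (36.5%, against 41.7%). All 27 were nuclear, and the 19 comprised 5 mitochondrial and 14 nuclear genes. Genes of the other respiratory complexes departed in this library too. The sum of 38 nuclear subunits of complexes II to V was 17874 CPM, against 7161 to 9879 CPM in the other 12 libraries. That of 6 mitochondrially encoded genes of complexes III to V was 8220 CPM, against 21300 to 34760 CPM. Relative to the mean of Cre- MPTP replicates 2 and 3, the CPM was 11.97-fold for Ndufaf8, an assembly factor of the Q module, 8.52-fold for the matrix-arm subunit Ndufa6, 7.36-fold for the membrane-arm subunit Ndufb2, 5.996-fold for Ndufs7, 5.19-fold for the acyl carrier protein Ndufab1 and 4.04-fold for Ndufs3. It was 0.253-fold for mt-Nd2, 0.274-fold for mt-Nd5, 0.315-fold for mt-Nd6, 0.337-fold for Ndufs1 and 0.346-fold for Ndufa4. The median size of this deviation, taken as a difference of log2(CPM + 0.5), was 1.32 over the 52 members and 0.81 over all genes tested.

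The direction of this deviation varied with the G and C content of the gene. Members above all other libraries had a median coding G and C content of 54.5%, and those below 48.1%. Across the 52 members the Spearman correlation between G and C content and the log2 deviation was 0.696, against 0.597 over 19294 genes, whereas with exonic length it was 0.086 over the members and -0.196 over all genes. These are correlations across genes of 1 library, which share its preparation and depth, and are given as a description. Single members departed from this in both directions. The membrane-arm subunit Ndufa3 was at 55.8% G and C and 0.373-fold, and Ndufv3 at 55.9% and 0.832-fold. Ndufaf5 was at 47.8% and 1.70-fold. The latter 2 were named after their values were seen. The correlation over the 52 members pools mitochondrial genes, low in G and C, with nuclear genes, and none over nuclear members alone is given. What produced the deviation was not tested.

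**Figure D2:**
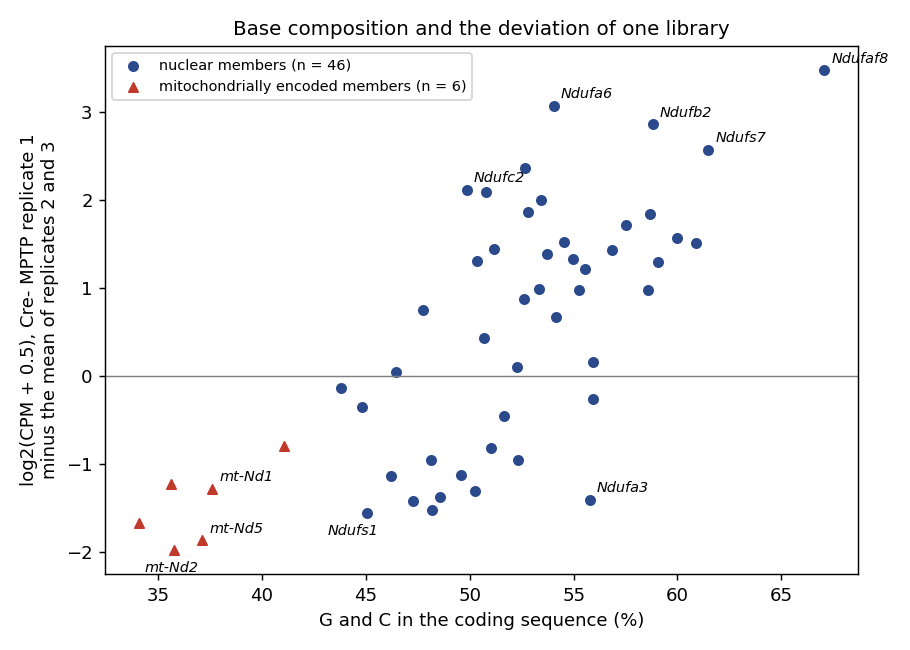
Coding G and C content (horizontal axis, percent) of 46 nuclear and 6 mitochondrial complex I genes against log2(CPM + 0.5) of Cre- MPTP replicate 1 minus that of the mean of replicates 2 and 3 (vertical axis). Each point is 1 gene. The mitochondrial genes sit at the lower left, and the Spearman correlation over the 52 genes was 0.696.

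Other libraries moved the members together by smaller amounts. Cre- Saline replicate 1 was the highest of its group for 43 of 46 nuclear members and 5 of 6 mitochondrial ones, whereas 38.7% of all genes were highest there, and Cre- Saline replicate 3 was the lowest for 43 and 6, against 35.4% of all genes. Cre+ MPTP replicate 4, the library with muscle transcripts, was the highest of its group for 41 of 46 nuclear and 6 of 6 mitochondrial members, against 25.5% of all genes. The summed level of the nuclear members was 4507, 3807 and 3468 CPM in Cre- Saline, 3455, 3591 and 3704 CPM in Cre+ Saline, 6839, 3127 and 3358 CPM in Cre- MPTP, and 3177, 3409, 3257 and 4209 CPM in Cre+ MPTP. Outside Cre- MPTP replicate 1, Cre- Saline replicate 1 and Cre+ MPTP replicate 4, that sum stayed between 3127 and 3807 CPM.

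In Cre- mice, edgeR called no complex I gene between MPTP and saline in either direction. The median log2 fold change was 0.10 over the 46 nuclear members, -0.45 over the 6 mitochondrial members tested and 0.03 over all 19360 genes. None of the 52 members passed a Benjamini-Hochberg adjusted p of 0.05 in edgeR's quasi-likelihood test, where 3.18% of all genes did. The smallest adjusted p among the members was 0.112, for the membrane-arm subunit Ndufa1, named after its values were seen. It measured 41.9, 34.4 and 29.2 CPM in Cre- Saline and 18.4, 27.3 and 23.4 CPM in Cre- MPTP. These groups did not overlap, and the value was -0.61 (SE 0.179). Other fits differed in the number called. DESeq2 called 1 member lower (Ndufa1, beside 2.06% of all genes), and limma voom with sample weights 8 lower (6.46%). edgeR after removal of the trend with G and C content called 1 lower (1.6%, and 1 lower at 3.2% without Cre- MPTP replicate 1). At an unadjusted p under 0.05, 3 members were higher and 8 lower after MPTP, against 9.25% and 5.72% of all genes. In bulk tissue, fewer cells of a type and less RNA per cell cannot be told apart.

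The Q module showed how far 1 library set these values. Ndufs7, which carries the last iron-sulphur cluster before ubiquinone, measured 150.5, 109 and 120.3 CPM in Cre- Saline and 526, 82.8 and 92.8 CPM in Cre- MPTP. A single MPTP library lay above the saline range and the other 2 lay below it. The log2 fold change was 0.88 (SE 0.542, 95% interval -0.29 to 2.06, edgeR adjusted p = 0.441) with all libraries and -0.53 (SE 0.174, edgeR adjusted p = 0.0783) without Cre- MPTP replicate 1. Ndufs3, a core subunit without a cluster of its own, measured 112, 92.7 and 87.4 CPM in Cre- Saline and 346, 81.0 and 90.1 CPM in Cre- MPTP. Its saline and MPTP libraries overlapped with the first MPTP library kept or set aside, and its value went from 0.82 to -0.18. Ndufs8, a further iron-sulphur subunit, measured 107, 89.7 and 80.6 CPM against 169.6, 68.5 and 76.3 CPM, with values of 0.18 and -0.35. MPTP replicates 2 and 3 lay below the saline range for Ndufs8. The median of the Q module was 0.65 with all libraries and -0.27 without that library.

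The N module moved little with that library left in or out, except for Ndufs1. Ndufs1, the largest iron-sulphur subunit, measured 182, 184 and 159 CPM in Cre- Saline and 61.6, 185 and 179.7 CPM in Cre- MPTP. The first MPTP library lay below the saline range, the second just above it and the remaining one within it, and the log2 fold change was -0.30 with it and 0.06 without it. Ndufv1, which binds NADH and the flavin, measured 237, 210.4 and 201 CPM against 207, 175 and 196 CPM, a value of -0.17 (SE 0.155, edgeR adjusted p = 0.613). Ndufv2 measured 168, 141 and 113 CPM against 131, 118 and 136 CPM, a value of -0.13, and the groups of both genes overlapped.

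The membrane core was low in the same single library. mt-Nd1 measured 6519.8, 5647 and 4208 CPM in Cre- Saline and 1986, 4882 and 4772 CPM in Cre- MPTP. mt-Nd2 measured 4263, 3761 and 2747 CPM in Cre- Saline and 869.7, 3449 and 3424 CPM in Cre- MPTP. In both genes MPTP replicates 2 and 3 lay within the saline range. Log2 fold changes were -0.49 for mt-Nd1, -0.48 for mt-Nd2, -0.43 for mt-Nd4 and -0.47 for mt-Nd6, with edgeR adjusted p-values from 0.433 to 0.574, and without Cre- MPTP replicate 1 they were -0.17, -0.06, -0.12 and -0.09. mt-Nd5, the distal pump subunit, measured 4003, 4421 and 3642 CPM against 1264, 4719.9 and 4520.2 CPM, with values of -0.20 and, without that library, 0.20. MPTP replicates 2 and 3 lay above the saline range and replicate 1 below it.

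**Figure D3:**
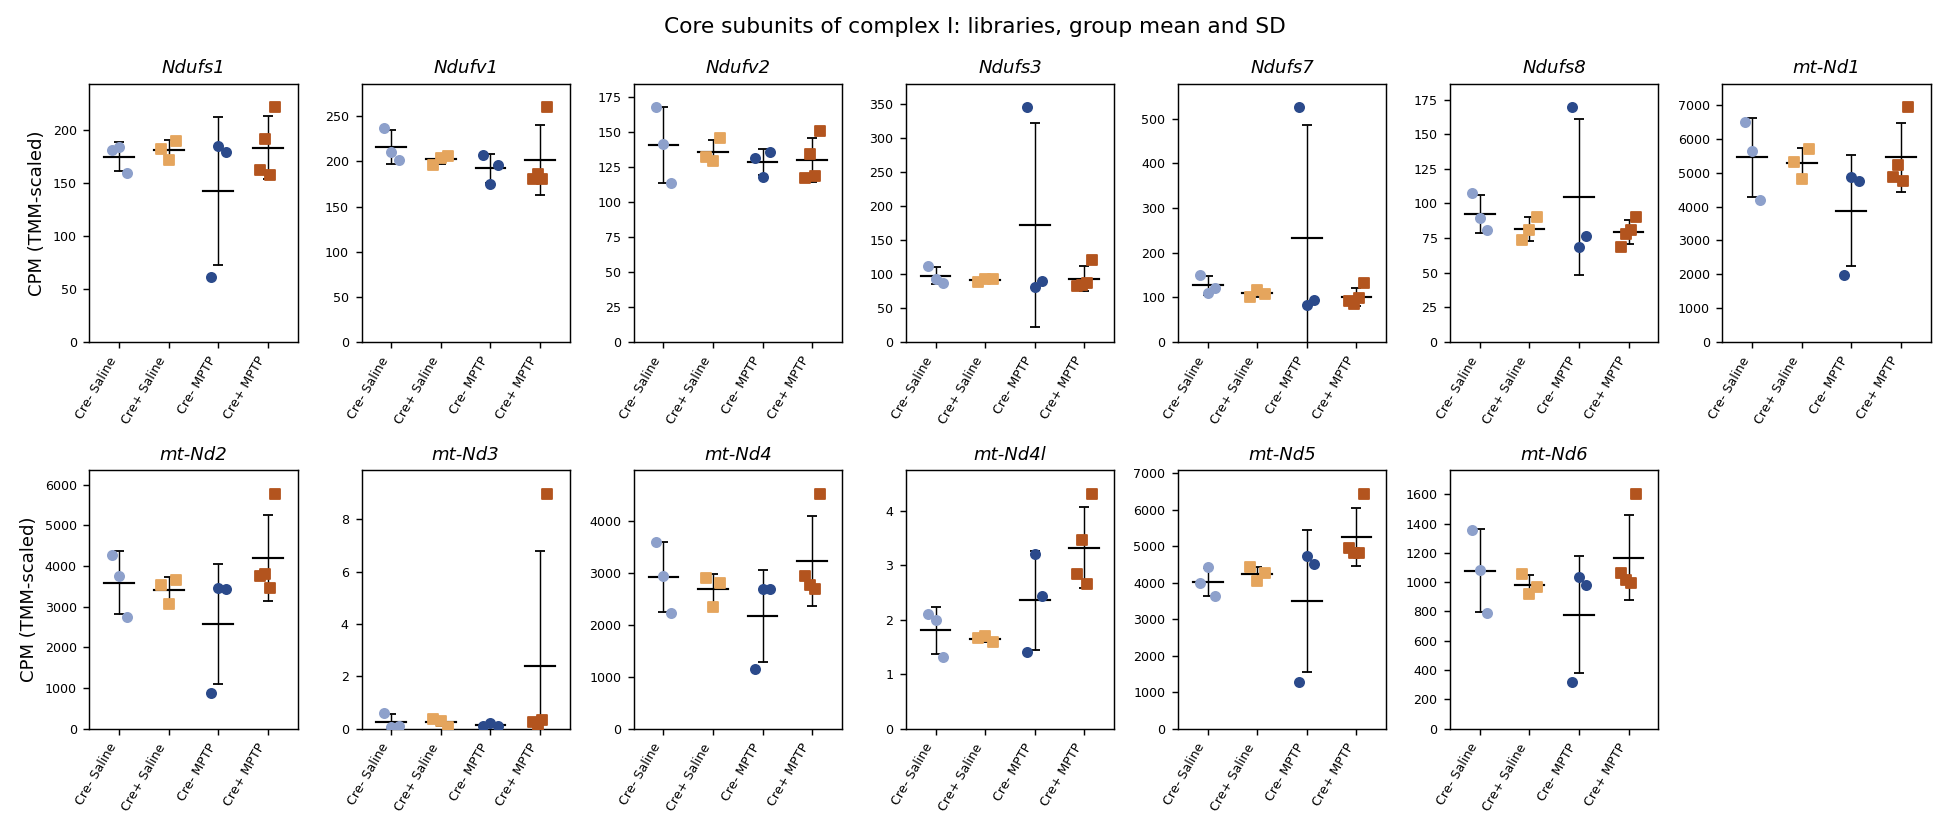
CPM (vertical axes, from 0) of 13 core subunits in the 4 groups (horizontal axes). Points are single libraries, and the bars give the mean ± SD of each group, cut at 0 where the SD exceeds the mean. The Cre- MPTP group of the Q module holds 1 point far above the rest (526 CPM for Ndufs7) and that of the membrane core 1 point far below (869.7 CPM for mt-Nd2).

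The accessory subunits and assembly factors with the lowest and highest fitted values in Cre- mice showed both kinds of pattern. Ndufa3 measured 105, 93.5 and 87.7 CPM in Cre- Saline and 26.8, 70.6 and 72.9 CPM in Cre- MPTP. Every MPTP library lay below every saline library, the value was -0.74 (SE 0.282, edgeR adjusted p = 0.245), and without Cre- MPTP replicate 1 it was -0.41 (SE 0.115, edgeR adjusted p = 0.0423). Ndufaf2, a late assembly factor, measured 37.6, 32.8 and 25.7 CPM against 12, 24.3 and 23.3 CPM. Its groups did not overlap either, with a value of -0.68 (SE 0.231, edgeR adjusted p = 0.188). Ndufb3, a membrane-arm subunit, measured 86.5, 70.6 and 59.4 CPM against 22.0, 56.2 and 59.4 CPM, a value of -0.65 (SE 0.293, edgeR adjusted p = 0.329). At the other end, Ndufaf8 measured 10.6, 7.77 and 7.67 CPM against 78.0, 6.14 and 6.90 CPM, a value of 1.79 (SE 0.738, edgeR adjusted p = 0.292). Ndufa6 measured 74.3, 59.7 and 56.3 CPM against 412, 45.2 and 51.5 CPM, a value of 1.41. Ndufb2 measured 71.7, 68.3 and 55.9 CPM against 413, 57.0 and 55.1 CPM, a value of 1.42. In these last 3 genes 1 MPTP library alone was high, and without it the values were -0.41 for Ndufaf8, -0.39 for Ndufa6 and -0.22 for Ndufb2. Counting all members, 8 lay lower in every MPTP library than in every saline library and 0 lay higher, beside 8.02% and 7.11% of all genes.

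Without Cre- MPTP replicate 1, the nuclear members of Cre- mice lay lower after MPTP almost throughout. Of 52 members, 49 had a value below 0 (51.1% of all genes), 25 were lower and 1 higher at an unadjusted p under 0.05 (12.6% of all genes were lower and 11.8% higher), and 29 of 46 nuclear members lay below all 3 saline libraries (20.9% of all genes). The median was -0.32 over the nuclear members, -0.08 over the mitochondrial ones and -0.01 over all genes. In that fit edgeR called 2 of 52 members lower, a share no larger than the 4.25% of all genes called lower. They were Ndufa3 as above and Ndufa13 (log2 fold change -0.50, SE 0.135, edgeR adjusted p = 0.0361). Ndufa13, a membrane-arm subunit also known as GRIM-19, was named after its values were seen, and measured 139, 117 and 110.2 CPM in Cre- Saline and 256, 83.1 and 89.2 CPM in Cre- MPTP. The 2 remaining MPTP libraries lay below all saline libraries for both genes, and the omitted library lay below them for Ndufa3 and above them for Ndufa13. The lowest value in that fit belonged to Ndufa4l2, at -0.74 (SE 0.309, edgeR adjusted p = 0.159), where Cre- MPTP replicates 2 and 3 measured 1.86 and 2.38 CPM and replicate 1 measured 7.04 CPM. By role the medians were -0.34 for membrane-arm accessory subunits, -0.36 for matrix-arm accessory subunits, -0.27 for the Q module, -0.24 for assembly factors and -0.15 for the N module.

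This lower level depended in part on Cre- Saline replicate 1, the saline library in which the members were high. With that library left out as well, 0 members were called (edgeR, 7.7% of all genes), 10 were lower and 1 higher at an unadjusted p under 0.05 (10.9% and 10.7%), and the median over the nuclear members was -0.18. The value was -0.33 (edgeR adjusted p = 0.106) for Ndufa3 and -0.39 (edgeR adjusted p = 0.0951) for Ndufa13. With Cre- MPTP replicate 1 and Cre+ MPTP replicate 4 left out together, which narrows the pooled spread, 9 members were lower (edgeR, 4.51% of all genes) at a nuclear median of -0.30. Oligodendrocyte transcripts moved in the same direction. The 5 markers summed to 11864.5 to 16167 CPM in Cre- Saline and, by replicate, 8754, 11319.5 and 8771 CPM in Cre- MPTP. The groups did not overlap, no marker was at 0, and 5 of 5 had values below 0. Within Cre- Saline these markers were lowest in replicate 1 and highest in replicate 3, the reverse of the nuclear members. Astrocyte markers summed to 1879 to 2367 CPM in Cre- Saline. In Cre- MPTP they were higher in replicates 2 and 3 (2610 and 2554 CPM) and lower in replicate 1 (1216 CPM). Gfap, an astrocyte gene outside that marker list, measured 292 to 363 CPM in Cre- Saline and, by replicate, 3171, 1242 and 1623 CPM in Cre- MPTP. The part of either cell type in the result was not tested.

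**Figure D4:**
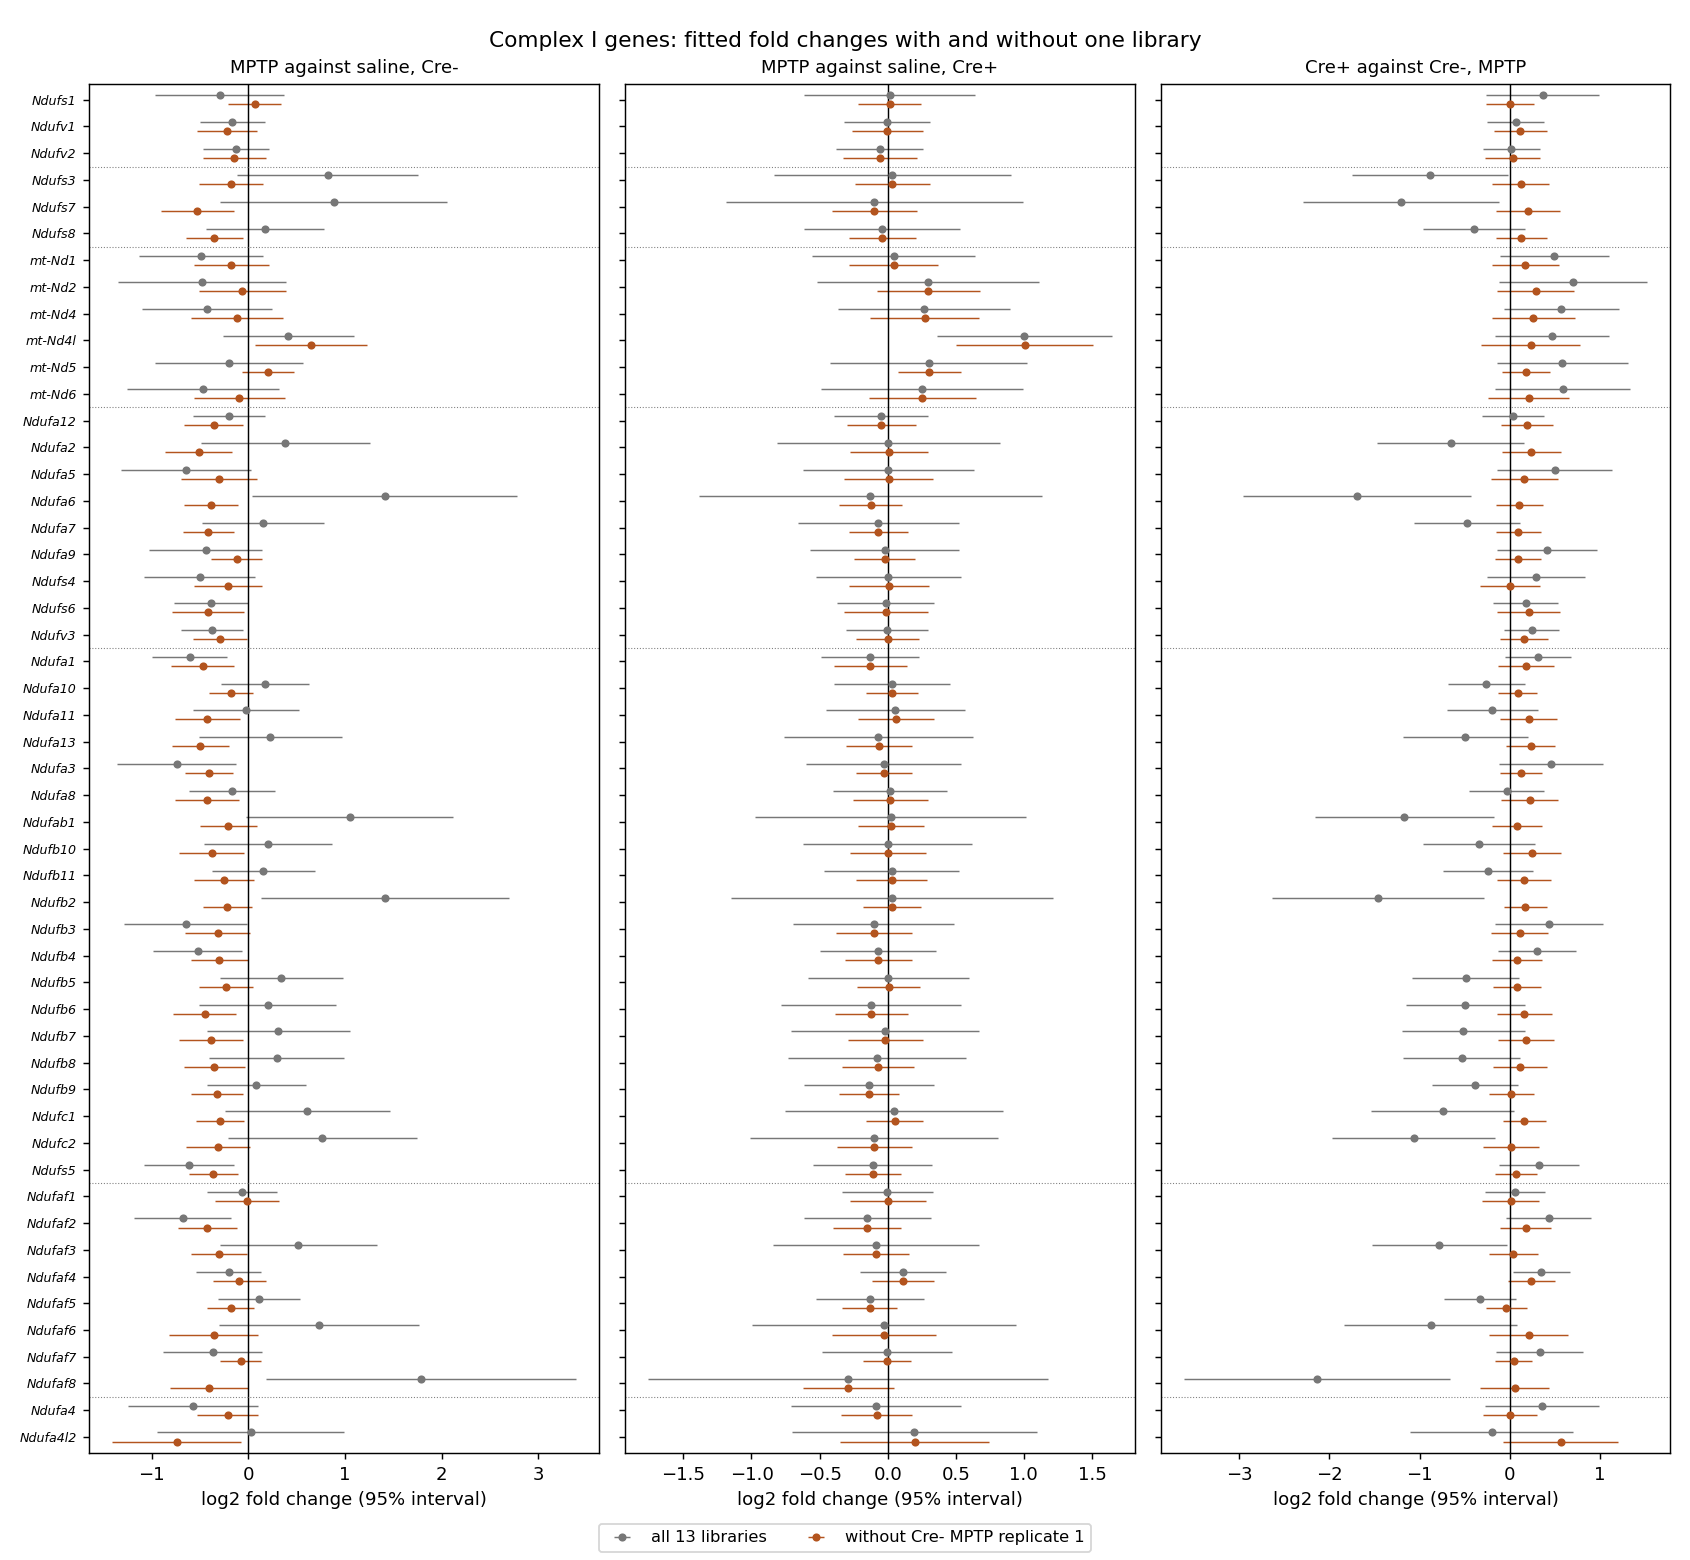
Log2 fold changes (horizontal axes) with 95% intervals for 51 complex I genes (vertical axis, by role) in 3 comparisons, with all 13 libraries (grey) and without Cre- MPTP replicate 1 (orange). Leaving out that library takes Ndufs7 from 0.88 to -0.53 in the left panel, whereas the middle panel, which does not use that library's level, keeps its values with narrower intervals.

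In Cre+ mice with all libraries, the median of the nuclear members was near 0 after MPTP, and mt-Nd4l had the largest value. That median depended on Cre+ MPTP replicate 4, the library with muscle transcripts. The summed nuclear members were 3177, 3409 and 3257 CPM in Cre+ MPTP replicates 1 to 3, below the 3455 to 3704 CPM of Cre+ Saline. In replicate 4 they were 4209 CPM. Without replicate 4, 44 of 52 members had edgeR values below 0, with a median of -0.12 over the members. No member was called in edgeR's test, which called 0% of all genes, and at an unadjusted p under 0.05 1 member was higher and 0 were lower (2.7% and 0.77% of all genes). Voom called mt-Nd4l higher, as were 0.945% of all genes. The median log2 fold change was -0.02 over the nuclear members, 0.28 over the mitochondrial members and 0.00 over all genes. Here mt-Nd4l, a small membrane core subunit, measured 1.66, 1.71 and 1.60 CPM in Cre+ Saline and 2.85, 3.47, 2.66 and 4.31 CPM in Cre+ MPTP. All 4 MPTP libraries lay above all saline libraries, with a value of 1.00 (SE 0.295, unadjusted p = 0.00506, edgeR adjusted p = 0.774, and 0.12 without Cre- MPTP replicate 1, which narrows the pooled spread). In Cre- mice the same gene measured 2.10, 1.99 and 1.31 CPM after saline and 1.41, 3.21 and 2.44 CPM after MPTP, where 2 of 3 MPTP libraries lay above the saline range.

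The other mitochondrial members of Cre+ mice had smaller values of the same sign. mt-Nd5 measured 4423, 4054 and 4274 CPM in Cre+ Saline and 4938, 4804, 4804 and 6433 CPM in Cre+ MPTP. Its groups did not overlap, and the value was 0.30 (SE 0.333, edgeR adjusted p = 1). mt-Nd2 measured 3544, 3065 and 3662 CPM against 3752, 3803, 3467 and 5778 CPM, with overlapping groups and a value of 0.29. Cre+ MPTP replicate 4 was the highest for each of these, and without it and Cre- MPTP replicate 1 the values were 0.86 for mt-Nd4l, 0.20 for mt-Nd5 and 0.11 for mt-Nd2. Among all members, 2 lay higher (mt-Nd4l and mt-Nd5) and 1 lower (Ndufaf5) in every MPTP library than in every saline library, beside 5.06% and 4.61% of all genes. Ndufaf5, an assembly factor that acts on Ndufs7, was named after its values were seen.

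The nuclear core of Cre+ mice overlapped between saline and MPTP for every N-module and Q-module gene. Ndufs7 measured 101, 117 and 108 CPM in Cre+ Saline and 91.4, 84.2, 98.6 and 131 CPM in Cre+ MPTP. The first 3 MPTP libraries lay below the saline range and the fourth above it, and the value was -0.10 (SE 0.502, 95% interval -1.19 to 0.99, edgeR adjusted p = 1). The lowest values were -0.29 for Ndufaf8, -0.15 for Ndufaf2 and -0.14 for Ndufb9, a membrane-arm subunit. Without both libraries that stood apart, the nuclear median was -0.12, and 14 members lay below all saline libraries (6.97% of all genes). The oligodendrocyte markers summed to 14292 to 16011 CPM in Cre+ Saline and 10455 to 13714 CPM in Cre+ MPTP, again without overlap, and their part was not tested.

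Between genotypes under MPTP, Cre+ against Cre-, the fitted values again turned on Cre- MPTP replicate 1. No member was called in edgeR's test (1.54% of all genes). At an unadjusted p under 0.05, 1 member was higher and 8 were lower (5.27% and 13.8% of all genes). Without Cre- MPTP replicate 2, 6 members were called lower (edgeR, 8.23% of all genes), and without replicate 3 it was 1 (2.33%). The median was -0.25 over the nuclear members, 0.58 over the mitochondrial members and 0.03 over all genes. The lowest values belonged to Ndufaf8 (-2.14, SE 0.679, edgeR adjusted p = 0.17), Ndufa6 (-1.69, SE 0.58, edgeR adjusted p = 0.19) and Ndufb2 (-1.46, SE 0.541, edgeR adjusted p = 0.204). Ndufaf8 measured 6.99, 6.32, 6.57 and 7.25 CPM in Cre+ MPTP, within or above the 6.14 and 6.90 CPM of Cre- MPTP replicates 2 and 3. The highest values were those of mt-Nd2 (0.70), mt-Nd6 (0.59) and mt-Nd5 (0.58). Without Cre- MPTP replicate 1 these 6 values were 0.05, 0.11, 0.17, 0.29, 0.21 and 0.18.

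With that library left out, 1 of 52 members had a value below 0, against 47.7% of all genes, and no member was called (edgeR, 3.18% of all genes). The median was 0.12 over the nuclear and 0.22 over the mitochondrial members. Leaving out Cre+ MPTP replicate 4 as well brought these medians to 0.03 and 0.06. With all libraries, 4 members lay higher in every Cre+ MPTP library than in every Cre- MPTP library (mt-Nd2, mt-Nd4, mt-Nd5 and Ndufaf2) and 0 lay lower, beside 6.25% and 5.07% of all genes. For mt-Nd4, the Cre- MPTP libraries were at 1152, 2687 and 2698 CPM and the Cre+ MPTP libraries at 2939, 2779, 2702 and 4529 CPM, so that the nearest libraries of the groups were 2698 and 2702 CPM.

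Between genotypes under saline, 49 of 52 members had values below 0, where 51.9% of all genes did, yet all were small. No member was called in edgeR's test, which called 0% of all genes, and 0 passed an unadjusted p under 0.05 (0.465% of all genes were higher and 0.444% lower). The median was -0.15 over the nuclear members, -0.10 over the mitochondrial members and -0.01 over all genes. Ndufa4l2 had the lowest value, -0.37 (SE 0.44), at 3.61, 3.01 and 4.05 CPM in Cre- Saline and 2.33, 4.03 and 1.90 CPM in Cre+ Saline, with overlapping groups. Ndufa2, a matrix-arm subunit, measured 54.6, 42.1 and 38.7 CPM against 35.4, 39.4 and 36.9 CPM, a value of -0.28. Ndufa11, a membrane-arm subunit, measured 71.2, 57.3 and 53.0 CPM against 49.7, 50.4 and 50.1 CPM, a value of -0.27. Ndufa11 was 1 of 4 members that lay lower in every Cre+ library, beside 5.71% of all genes, and 0 lay higher, beside 5.91%. The highest values were 0.08 for mt-Nd5, 0.05 for Ndufs1 and 0.03 for Ndufaf4. Without Cre- Saline replicate 1 and Cre- MPTP replicate 1, the nuclear median was -0.02 and the mitochondrial median 0.07, with 28 of 52 members below 0 (50.2% of all genes).

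The interaction asks whether the response to MPTP differed between genotypes, as the Cre+ response minus the Cre- response. No member was called in edgeR's test, against 0.0103% of all genes, and 0 passed an unadjusted p under 0.05 (2.54% of all genes were higher and 3.22% lower). The medians were -0.13 over the nuclear and 0.64 over the mitochondrial members. Ndufaf8 (-2.08, SE 0.991), Ndufa6 (-1.54, SE 0.85) and Ndufb2 (-1.39, SE 0.795) were lowest, and mt-Nd2 (0.77), mt-Nd6 (0.72) and Ndufa3 (0.71) highest, with edgeR adjusted p-values of 0.795. Without Cre- MPTP replicate 1, the nuclear median was 0.26 and the mitochondrial median 0.35, 8 members were higher at an unadjusted p under 0.05 (6.47% of all genes), and none was called (edgeR, 1.03% of all genes). Leaving out Cre- Saline replicate 1 as well gave 0.13 and 0.17. Standard errors of single members ran from 0.204 to 0.991 with all libraries, so differences between genotypes near these medians were not detectable for most members taken 1 by 1.

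The ratio of mitochondrial to nuclear members was higher after MPTP than after saline in Cre+ mice and in 2 of 3 Cre- mice. The summed level of the mitochondrially encoded members was 19746, 17857 and 13625 CPM in Cre- Saline, 17265, 15213 and 17429.9 CPM in Cre+ Saline, 5591, 16778 and 16398 CPM in Cre- MPTP and 17564, 17648, 16738 and 25303 CPM in Cre+ MPTP. Divided by the summed nuclear members, this gave ratios of 4.38, 4.69 and 3.93 in Cre- Saline and 5.0, 4.24 and 4.71 in Cre+ Saline. The ratios were 0.818, 5.37 and 4.88 in Cre- MPTP and 5.53, 5.18, 5.14 and 6.01 in Cre+ MPTP. Every Cre+ MPTP ratio lay above every Cre+ Saline ratio, and 2 of 3 Cre- MPTP ratios lay above every Cre- Saline ratio, the remaining one being the lowest of all 13. In those 2 Cre- MPTP libraries the mitochondrial sums lay within the Cre- Saline range and the nuclear sums below it. The group mean ratio was 4.33 ± 0.383 (SD, n = 3) for Cre- Saline and 4.65 ± 0.384 (SD, n = 3) for Cre+ Saline. For Cre- MPTP it was 3.69 ± 2.5 (SD, n = 3), and for Cre+ MPTP 5.46 ± 0.405 (SD, n = 4). The ratio was formed after values were seen and is given as a description.

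**Figure D5:**
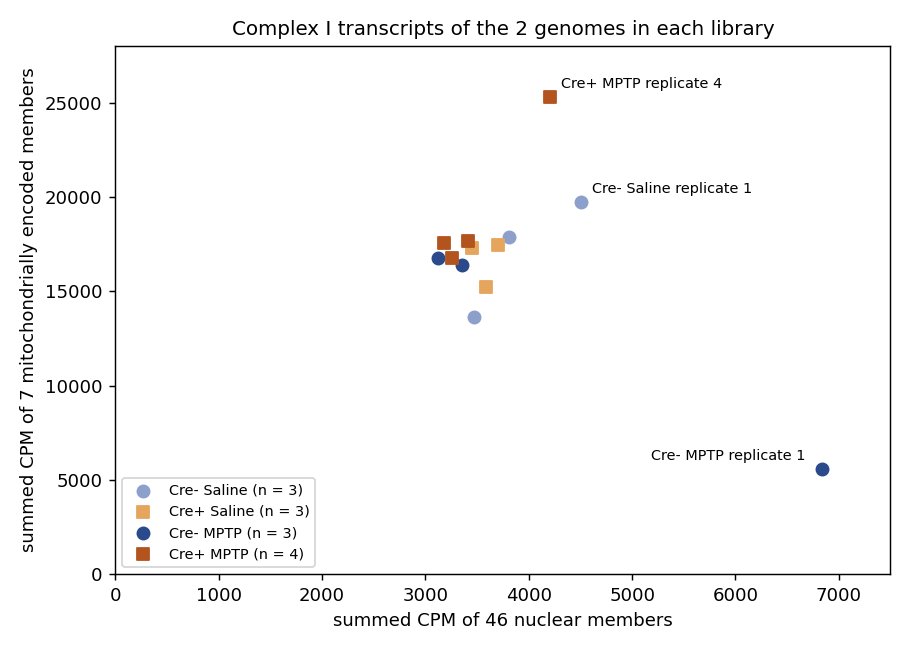
Summed CPM of the 46 nuclear (horizontal axis) and of the mitochondrially encoded (vertical axis) complex I genes, with 1 point per library and colours for the 4 groups. Cre- MPTP replicate 1 sits alone at 6839 nuclear and 5591 mitochondrial CPM, and Cre+ MPTP replicate 4 is the highest at 25303 mitochondrial CPM.

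Other genes of the respiratory chain were measured in the same fits. In Cre- mice, 38 nuclear subunits of complexes II to V had a median log2 fold change of -0.13 after MPTP with 0 called, and -0.32 without Cre- MPTP replicate 1, with 4 called lower in edgeR's test (4.25% of all genes). In Cre+ mice their median was -0.01 with 0 called. The 6 mitochondrially encoded genes of complexes III to V had medians of -0.17 in Cre- mice and 0.15 in Cre+ mice. The 11 complex I assembly factors that do not carry the Nduf name had medians of 0.00 and 0.01, and 18 genes of mitochondrial transcription and biogenesis -0.05 and 0.00, in Cre- and Cre+ mice respectively. No gene of these lists was called in edgeR's test with all libraries.

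Values of mt-Nd3 and mt-Nd4l rest on few counts. mt-Nd3, a membrane core subunit, had 15, 2 and 3 counts in Cre- Saline, 9, 7 and 2 in Cre+ Saline, 1, 5 and 3 in Cre- MPTP and 7, 1, 7 and 235 in Cre+ MPTP, and did not pass the count filter. Only Cre+ MPTP replicate 4 departed from these low counts. The annotated nuclear copy Gm28438 (chr1:24612775-24613119), identical to mt-Nd3 at 99.71% of 345 aligned bases, took 78 to 1040 counts in the same libraries. mt-Nd4l has the copy Gm10222 (chr1:24612407-24612700), identical over 294 bases, with 24 to 151 counts, so the levels of mt-Nd3 and mt-Nd4l, and the mt-Nd4l values above, are uncertain. mt-Nd4 has the copy Gm28439 (chr1:24611535-24612410), identical over 876 of 1378 bases, with 39 to 145 counts, so its level is uncertain as well. In all, 13 members, 8 of them nuclear, had an annotated copy of at least 95% identity over at least 150 bases, Ndufab1 and Ndufs3 among them. The exons of 25 members overlapped another gene, on the opposite strand for 17 nuclear members, and the strand setting of the counting is not given in the sources used here.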

How the data were processed

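Midbrain RNA from 13 mice was measured by stranded total RNA sequencing, 1 library per mouse. The authors trimmed reads with Trimmomatic 0.36, aligned them to GRCm38 with STAR 2.5.2b and deposited raw gene counts from featureCounts (Subread 1.5.2), with no normalization, for 49315 genes per library. The strand setting is not given in the sources used here.

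Symbols came from GENCODE M21 (49056 genes matched, 259 did not). The 19360 genes that reached 10 counts in 3 or more libraries were fitted with edgeR 4.0.16 (quasi-likelihood, TMM, 1 coefficient per group, all 13 libraries) in R 4.3.3, and p-values were adjusted by Benjamini-Hochberg over all genes tested with a threshold of 0.05. SE is the absolute log2 fold change divided by the square root of F. CPM used TMM-scaled library sizes. G and C content was taken over coding sequences, and copies were searched with BLAST 2.17.0. The same steps were tested on simulated data with 200 changed genes. With 3 or 4 mice per group, p-values set each group difference against the spread between mice, estimated over all groups together. Totals of 11489150 to 29397278 counts set the counting error.

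The study tested gene counts with DESeq2, used here as an alternative (1.42.0), beside limma voom (3.58.1) with sample weights, a count minimum of 30 or none, other scalings, fits on the compared groups alone, a length trend, a replicate block and each library left out. Trends with G and C content and joint omissions of libraries were added after seeing the data. Text names the core subunits, members called in any comparison with all libraries, the 3 highest and 3 lowest values per comparison, Ndufab1, Ndufa4, Ndufa4l2 and members under the filter, and others only where stated. The members and lists were chosen with earlier results of these data known. The labels do not say whether replicate numbers pair the mice, and the main fits used no pairing. The values of 1 member, included in the counts and medians, are not reported here.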

Additional observations from a re-analysis of the deposited data

Results flagged for a closer look

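Of 54 complex I values in the 4 Cre+ MPTP libraries, 14 had replicate 4 farther from the others than Dixon's 95% critical value for the gap over the range allows. Chance gives an outlier in about 1 in 20 groups when any of the 4 libraries may be the outlier, and fewer for a library fixed beforehand. The values are not independent, since the library carries muscle transcripts at 6334 CPM and all come from it. The summed mitochondrial value also repeats its single genes. Among the mitochondrial genes it measured 5778 CPM for mt-Nd2 (others 3467 to 3803), 4529 CPM for mt-Nd4 (2702 to 2939), 6433 CPM for mt-Nd5 (4804 to 4938), 1603 CPM for mt-Nd6 (994 to 1063) and 8.97 CPM for mt-Nd3 (0.0559 to 0.311), and their sum was 25303 CPM (16738 to 17648). Among the core subunits it measured 260 CPM for Ndufv1 and 120 CPM for Ndufs3. Among the other nuclear genes it measured 136 CPM for Ndufa8, 91.7 CPM for Ndufc2, 69.2 CPM for Ndufv3, 169 CPM for Ndufb8 and 39.8 CPM for Ndufaf7, and for Ndufaf5 it was the lowest of the group, at 26.6 CPM (28.1 to 28.3). The part of the muscle transcripts in these values was not tested.

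For mt-Nd2, mt-Nd4 and mt-Nd6, every Cre- MPTP library lay below the mean of Cre- Saline and every Cre+ MPTP library above the mean of Cre+ Saline. The interaction, Cre+ minus Cre-, was 0.771 for mt-Nd2, 0.695 for mt-Nd4 and 0.721 for mt-Nd6 on the log2 scale, with unadjusted p-values of 0.184, 0.128 and 0.172 and edgeR adjusted p-values of 0.795, so the difference did not pass the test. Without Cre- MPTP replicate 1 the interactions were 0.36 for mt-Nd2, 0.39 for mt-Nd4 and 0.35 for mt-Nd6.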

How the results depend on the processing

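With all 13 libraries edgeR called 0 members in each of the 5 comparisons. For MPTP in Cre- mice, DESeq2 called 1 (Ndufa1, lower, as were 2.06% of all genes), limma voom with sample weights 8 lower (6.46%), removal of the G and C trend 1 lower with or without Cre- MPTP replicate 1 (1.6% and 3.2%), joint omission of the 2 libraries that stood apart (Cre- MPTP replicate 1, Cre+ MPTP replicate 4) 9 lower, and omission of single libraries 0 to 2 (2 when Cre- MPTP replicate 1 was omitted). In Cre+ mice voom called 1 (mt-Nd4l, higher, as were 0.945% of all genes). Between genotypes under MPTP, omission of single libraries gave 0 to 6 (6 lower without Cre- MPTP replicate 2, where replicate 1 weighs more, and 1 when replicate 3 was omitted, beside 8.23% and 2.33% of all genes).

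The nuclear median in Cre- mice, 0.10, was -0.24 with voom, -0.32 to 0.28 over single omissions (the highest without Cre- MPTP replicate 2), -0.30 without the 2 libraries that stood apart, -0.18 without the first replicates of Cre- MPTP and Cre- Saline, and -0.23 and -0.30 without Cre- MPTP replicate 1 after removal of the length trend and of the G and C trend. The mitochondrial median in Cre- mice, -0.45, was 0.10 without both replicates 1. In the order of these settings after the single omissions, the nuclear median between genotypes under MPTP, -0.25, was 0.046 with voom, -0.44 to 0.12, 0.028, 0.12, 0.11 and 0.11, and that of the interaction, -0.13, was 0.15 with voom, -0.28 to 0.26, 0.17, 0.13, 0.20 and 0.26. The mitochondrial median between genotypes under MPTP, 0.58, was 0.061 without the 2 libraries that stood apart. Ndufs7 in Cre- mice reversed from 0.88 to -0.51 without those 2 libraries (edgeR adjusted p = 0.0217). The other count minimums, scalings, the length trend and fits on the compared groups alone left 0 members called, with every nuclear and mitochondrial median of the same sign.

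Replicate numbers did not pair the mice: over 18 same-numbered pairs the correlation of deviations ran from -0.179 to 0.184, above 0.1 in 3. With the replicate block, which leaves out Cre+ MPTP replicate 4, 0 members were called in any comparison, and the nuclear median of the MPTP comparison was 0.07 (Cre-) and -0.13 (Cre+). The main limits are 3 or 4 mice per group, 1 library with about 1.12% mitochondrial counts that decides the Cre- MPTP values, muscle transcripts in another, shared reads with near-identical copies, and bulk tissue. Causes of these shifts were not tested.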
